A study of Mus musculus with 10 samples.

Results

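A group of 10 known target and partner genes of the transcriptional regulator YAP and of its DNA-binding partners, the TEAD proteins, was followed in mouse keratinocytes that lacked RhoA. The members were Ccn1 (older name Cyr61), Ccn2 (older name Ctgf), Ankrd1, Igfbp3, Ptpn14, Axl, Amotl2, Tead1, Wwc1 and Wwc2. Every probe set that the platform annotation gave to exactly 1 of these symbols was taken, which gave 26 probe sets of 10 genes, of 45037 probe sets and 18193 named genes in all. No measured value entered the choice of probe sets for a gene, but the 10 genes were chosen with earlier results of these data known. The members' counts and medians, set below beside those of all probe sets or of other lists, are therefore descriptions of a set chosen that way.

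The arrays formed 4 groups: 3 of cultured primary RhoA-KO keratinocytes, 3 of cultured primary Wildtype keratinocytes, 2 of RhoA-KO keratinocytes taken straight from the epidermis and 2 of Wildtype keratinocytes taken the same way. RhoA is a small GTPase that organises actin and cell tension. The RhoA-KO cells had the genotype RhoA fl/fl K5 cre, and the cells called Wildtype had the genotype RhoA fl/+ K5 cre. All 4 groups thus carried the Cre transgene, and the controls had 1 floxed allele, open to deletion by Cre, beside 1 unfloxed allele. The comparison is therefore of 2 floxed alleles against 1, not against cells without a floxed allele. The K5 promoter is active in basal keratinocytes, which limits the deletion to cells that are or were basal keratinocytes. The titles call the arrays biological replicates and name no animals, so the p-values cover no more than the spread among these arrays. Fresh cells are called so below, and the genotype difference is always RhoA-KO minus Wildtype within a condition.

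Values are deposited intensities, made with MAS5 per the submitters' notes. Their scale differed between the conditions, with array medians of 7.75 to 8 in culture and 64.1 to 64.8 in fresh cells. The highest value of an array was 111660 to 123446 in culture and 31541 to 32618 in fresh cells, so the conditions differed by more than a constant factor. Intensities were therefore compared only within a condition. Krt5 and Krt14, the keratins that define basal keratinocytes, stood at the 99.6th percentile of intensity or above on every array. The brightest Rhoa probe set read 7892 ± 294 in cultured RhoA-KO against 10123 ± 1027 in cultured Wildtype cells (SD, n = 3 each; limma adjusted p = 0.156). In fresh cells it read 4347 ± 72.2 in RhoA-KO against 3793 ± 377 in Wildtype (SD, n = 2 each; limma adjusted p = 0.434). The fresh RhoA-KO arrays thus both read above the fresh Wildtype arrays, against the direction of the label, and the genotypes below are those the labels give. Whether these probes read the floxed exons is not known here, so they do not check the labels. Fresh RhoA-KO replicate 2 stood apart: the 11 hair follicle marker genes on the array summed to 604 on RhoA-KO replicate 1 and 45725 on RhoA-KO replicate 2, against 1621 and 814 on the Wildtype arrays.

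YAP and its relative TAZ are coactivators that enter the nucleus and bind TEAD proteins at DNA. The kinases of the Hippo pathway phosphorylate YAP and keep it in the cytoplasm, while actin tension, to which RhoA contributes, favours its entry into the nucleus. In skin, YAP is known for its activity in basal keratinocytes and in wounds. Ccn1, Ccn2 and Ankrd1 are the targets most often read as a measure of YAP activity. Several other members are at the same time targets and parts of the pathway: Amotl2, Ptpn14, Wwc1 and Wwc2 restrain YAP, and Tead1 is a partner on DNA.

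Across the members, readings were lower in RhoA-KO than in Wildtype keratinocytes in both conditions, but nearly no single difference passed the test over all probe sets. In culture 23 of the 26 probe sets had a lower mean log2 intensity in RhoA-KO, and 3 had a higher one, against 54.4% of all probe sets lower. The 26 include probe sets too dim to test: of the 23 tested, 20 were lower and 3 higher. In 15 of the 26, all of them tested, every RhoA-KO array read below every Wildtype array, and in 0 above. The shares of all probe sets in these directions were 6.37% and 5.22%. Of 23 probe sets tested after the filter on low values, 1 passed at a limma adjusted p of 0.05, against 0.273% of the 22682 probe sets tested, and it was a Wwc2 probe set. In 13 of the 23 the unadjusted p was under 0.05 and the reading lower, and in 0 higher, against 8.49% and 7.16% of all tested probe sets. The median log2 difference was -0.44 over all 26 and -0.44 over the tested members, beside -0.01 over all tested probe sets.

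In fresh cells 25 of the 26 probe sets had a lower mean in RhoA-KO, against 47.9% of all probe sets. In 24 both RhoA-KO arrays read below both Wildtype arrays and in 1, of Ankrd1, above, against 19.2% and 21.3% of all probe sets, shares that are high because each group held 2 arrays. The 26 again include probe sets too dim to test, those of Ankrd1 among them. All 19 tested were lower without overlap, with a median log2 difference of -0.61 (-0.47 over all 26), beside -0.000340 over all tested probe sets. None of the 19 passed at a limma adjusted p of 0.05, nor did any of the 22893 probe sets tested (0%), and the smallest adjusted p among the members was 0.153. The unadjusted limma p was under 0.05 in 15 of the 19, all lower in RhoA-KO and 0 higher, against 6.89% and 6.01% of all tested probe sets. A fit without fresh RhoA-KO replicate 2, the array with the hair follicle transcripts, leaves 1 RhoA-KO array, so no count of p-values is given for it. Probe sets of 1 gene share their RNA and are not independent of each other. In whole-cell RNA, fewer cells of a type and less RNA per cell cannot be told apart.

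**Figure D1:**
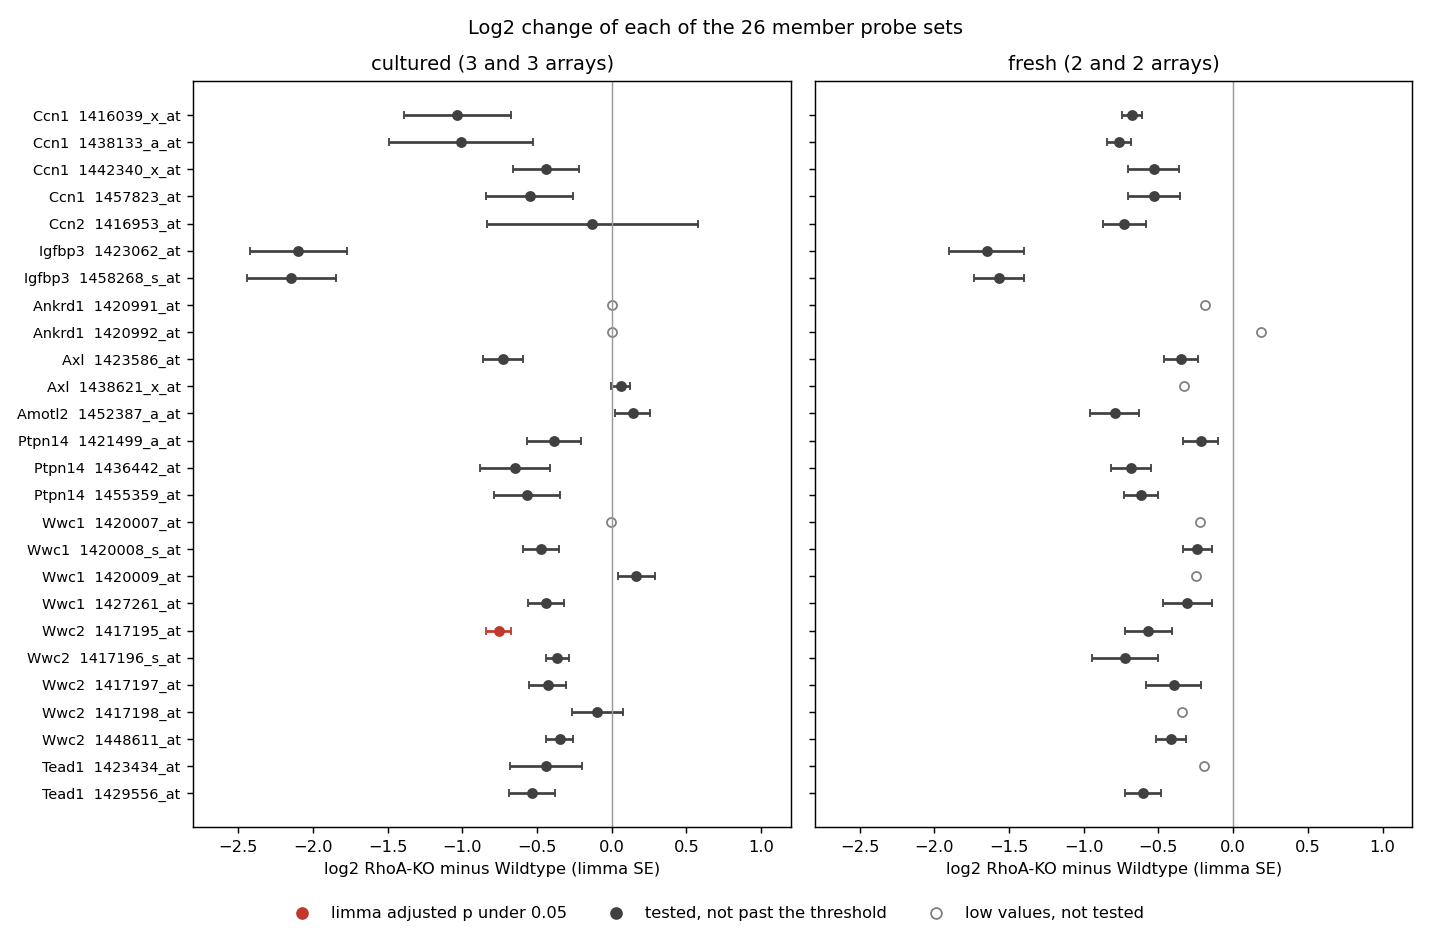
Log2 difference, RhoA-KO minus Wildtype, of each of the 26 probe sets (rows, grouped by gene) in cultured and in fresh cells, with the limma standard error as a bar and open symbols for probe sets too dim to test. Most points lie left of 0 in both panels, the Igfbp3 probe sets lie farthest left, and the Wwc2 probe set 1417195_at is the only one past the threshold.

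The promoters are shown first, because TEAD proteins bind the letters GGAATG. The 250 bases before the transcript start were available from RefSeq (GRCm38.p6) for 8 of the 10 members; Ccn2 and Tead1 are named only. The letters GGAATG or, on the other strand, CATTCC were found in 6 of these 8: once in Ccn1, Ptpn14, Axl and Amotl2, at 2 places in Ankrd1 and at 3 in Wwc2, and in neither Igfbp3 nor Wwc1. Of all 32851 RefSeq promoters of this length, 12.64% held at least 1 match, 1.023% at least 2 and 0.0913% at least 3. The letters TGANTCA, the AP-1 motif, which is its own reverse complement, were in 0 of the 8 and in 6.749% of all promoters, and no TEAD match overlapped one. A match is a description of these letters and not evidence of binding. Below, matches to the TEAD letters are in capitals and each sequence is written along the gene's own strand, so the start of transcription follows its last base. Wwc2 is shown for its 3 matches, Ccn1 as the most often used target, Amotl2 as the gene whose genotype difference differed between conditions, and Igfbp3 as the member with the largest difference and no match. They lie at chr8:47990545-47990794 (Wwc2, minus strand), chr3:145649986-145650235 (Ccn1, minus strand), chr9:102717554-102717803 (Amotl2, plus strand) and chr11:7213924-7214173 (Igfbp3, minus strand).
Wwc2: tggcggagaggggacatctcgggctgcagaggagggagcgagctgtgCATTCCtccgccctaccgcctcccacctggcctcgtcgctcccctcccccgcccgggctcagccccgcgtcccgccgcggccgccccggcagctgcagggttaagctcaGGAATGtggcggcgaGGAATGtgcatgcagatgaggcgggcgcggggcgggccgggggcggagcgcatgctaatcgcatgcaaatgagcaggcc
Ccn1: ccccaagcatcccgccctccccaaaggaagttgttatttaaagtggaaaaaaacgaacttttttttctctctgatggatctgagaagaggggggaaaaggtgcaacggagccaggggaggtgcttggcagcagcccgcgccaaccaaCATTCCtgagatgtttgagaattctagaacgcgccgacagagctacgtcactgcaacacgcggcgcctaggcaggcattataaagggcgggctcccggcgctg
Amotl2: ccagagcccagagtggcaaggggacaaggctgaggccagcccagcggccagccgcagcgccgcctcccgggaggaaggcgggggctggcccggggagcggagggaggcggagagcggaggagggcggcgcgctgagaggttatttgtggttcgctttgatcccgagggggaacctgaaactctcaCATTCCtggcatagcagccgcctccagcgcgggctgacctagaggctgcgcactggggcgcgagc
Igfbp3: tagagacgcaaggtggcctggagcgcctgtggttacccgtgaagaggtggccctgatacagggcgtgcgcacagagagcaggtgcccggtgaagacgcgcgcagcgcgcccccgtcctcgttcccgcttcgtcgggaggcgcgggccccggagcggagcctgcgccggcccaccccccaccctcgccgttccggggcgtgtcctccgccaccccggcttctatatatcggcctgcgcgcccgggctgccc
In Wwc2 the matches began 203, 94 and 79 bases before the start, in Ccn1 103 bases and in Amotl2 65 bases before it.

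Igfbp3 encodes a secreted protein that binds insulin-like growth factors. It had the largest genotype difference of the members in both conditions and on both of its probe sets. In culture the probe set 1423062_at read 2440.4, 1048 and 1632 in RhoA-KO, against 7327, 5524 and 8057 in Wildtype. All 3 RhoA-KO arrays were below all 3 Wildtype arrays, and the lowest of all was RhoA-KO replicate 2. The means were 1707 ± 699 in RhoA-KO and 6969 ± 1303 in Wildtype (SD, n = 3 each), a log2 difference of -2.10 (SE 0.32), or 4.28-fold less, which missed the threshold (limma adjusted p = 0.0913). The probe set 1458268_s_at, which reads the same transcript, gave 609, 282 and 474 in cultured RhoA-KO, against 2193, 1595 and 2005 in cultured Wildtype. Its groups were equally apart, with a log2 difference of -2.14 (SE 0.30, limma adjusted p = 0.0734).

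In fresh cells 1423062_at read 1069 and 1337 in RhoA-KO, against 2929 and 4796 in Wildtype, a log2 difference of -1.65 (SE 0.25, limma adjusted p = 0.244). The probe set 1458268_s_at read 794 and 834 in fresh RhoA-KO, against 2057 and 2825 in fresh Wildtype (log2 difference -1.57, SE 0.17, limma adjusted p = 0.153). Both probe sets thus placed every fresh RhoA-KO array below every Wildtype array. In culture Igfbp3 passed the threshold under several other settings: 1458268_s_at had an adjusted p of 0.0426 when arrays were centred on the 75th percentile, and both probe sets passed with array weights (0.0411 and 0.0407) and in 1 fit over all 10 arrays (0.0189 and 0.0106).

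Ccn1, a secreted matricellular protein that binds integrins, was lower in RhoA-KO on all 4 of its probe sets in both conditions, without passing the threshold. In culture 1416039_x_at read 1936, 2136 and 1820.2 in RhoA-KO, against 7181, 3254 and 2767 in Wildtype. The RhoA-KO arrays lay close together and below every Wildtype array, and Wildtype replicate 1 was far above the other Wildtype arrays. The log2 difference was -1.03 (SE 0.36, 95% interval -1.91 to -0.15, limma adjusted p = 0.265). Without cultured Wildtype replicate 1 it was -0.61. The probe set 1438133_a_at read 1284, 1289.9 and 1073 in cultured RhoA-KO, against 5102, 2189.7 and 1295 in cultured Wildtype. Its groups did not overlap, but the lowest Wildtype array was almost level with the highest RhoA-KO array (log2 difference -1.01, SE 0.48, limma adjusted p = 0.375). Without cultured Wildtype replicate 1 its log2 difference was -0.48.

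In fresh cells the Ccn1 arrays of a genotype were closer to each other. The probe set 1416039_x_at read 4657 and 4926 in RhoA-KO, against 7612 and 7692 in Wildtype. The means were 4792 ± 190.0 in RhoA-KO and 7652 ± 56.7 in Wildtype (SD, n = 2 each), a log2 difference of -0.68 (SE 0.07, 95% interval -0.84 to -0.51). It ranked 10 by p among all 22893 probe sets tested, with an unadjusted limma p of 9.98e-05 and an adjusted p of 0.153. The probe set 1438133_a_at gave 2379.7 and 2583 in fresh RhoA-KO, against 4198 and 4207 in fresh Wildtype (log2 difference -0.76, SE 0.08, limma adjusted p = 0.153). The other Ccn1 probe sets, 1442340_x_at and 1457823_at, gave log2 differences of -0.53 each in fresh cells and of -0.44 and -0.55 in culture, none of them past the threshold. Without cultured Wildtype replicate 1 the culture values were -0.21 and -0.22, so the size of all 4 Ccn1 differences in culture depended on that array.

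Ccn2, the matricellular protein also known as connective tissue growth factor, had overlapping genotypes in culture and separate ones in fresh cells. Its single probe set read 331, 306 and 310.4 in cultured RhoA-KO, against 1096, 158 and 239 in cultured Wildtype. The genotypes overlapped: Wildtype replicate 1 was the highest of the 6 arrays, while Wildtype replicates 2 and 3 were the lowest. The log2 difference was -0.13 (SE 0.71, 95% interval -1.87 to 1.61, limma adjusted p = 0.958), and without Wildtype replicate 1 it was 0.70 (limma adjusted p = 0.204), so its sign rested on that array. In fresh cells the same probe set read 1722 and 2260.0 in RhoA-KO, against 3211 and 3331 in Wildtype, with no overlap (log2 difference -0.73, SE 0.14, limma adjusted p = 0.274). The difference of the culture effect minus the fresh effect was 0.60 with a 95% interval from -0.98 to 2.18, too wide to place it (limma adjusted p = 0.688). Cultured Wildtype replicate 1 was thus the highest array of its group for both Ccn1 and Ccn2.

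Ankrd1, a nuclear ankyrin repeat protein best known from heart and muscle, was not measurable on either of its probe sets. In culture 1420991_at read 4.32, 4.35 and 4.37 in RhoA-KO, against 4.34, 4.40 and 4.31 in Wildtype, and 1420992_at read 5.09, 5.13 and 5.15 in RhoA-KO, against 5.11, 5.17 and 5.10 in Wildtype. In fresh cells 1420991_at read 23.6 and 23.0 in RhoA-KO, against 24.0 and 29.5 in Wildtype, and 1420992_at read 22.3 and 21.2 in RhoA-KO, against 17.4 and 20.9 in Wildtype. All of these values lay below the median of their own array, so neither probe set was tested and no fold is given.

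**Figure D2:**
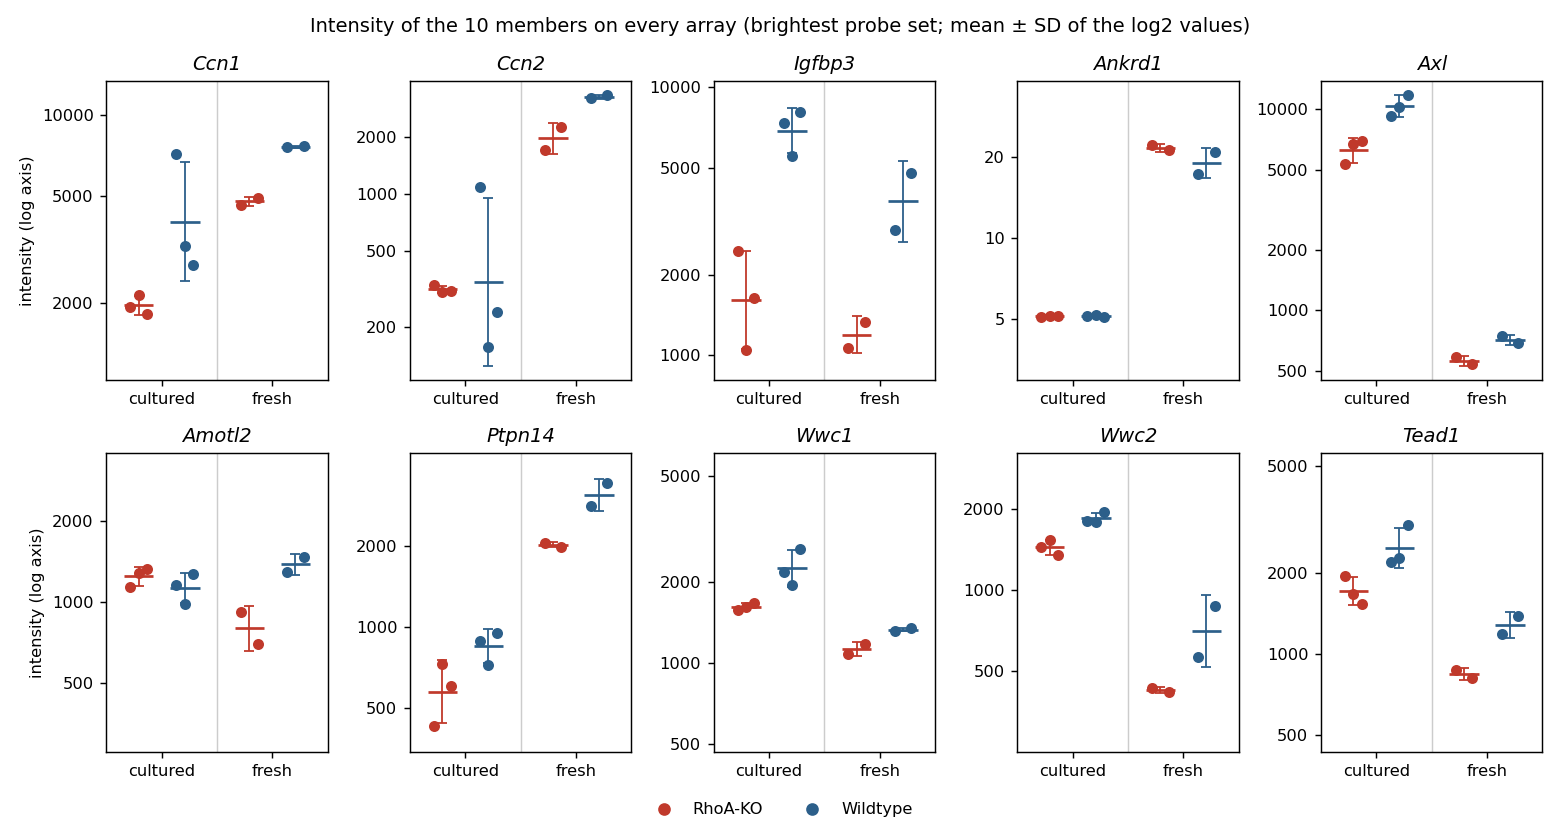
Intensity (log axis) of the brightest probe set of each of the 10 genes on every array, RhoA-KO left of Wildtype within cultured and within fresh cells, with points for arrays and the mean ± SD of the log2 values. The Ccn1, Igfbp3, Axl, Wwc1, Wwc2 and Tead1 groups do not overlap in either condition, Ccn2 has 1 high Wildtype array in culture, and Ankrd1 lies at the floor. Cultured and fresh intensities are on different scales.

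Axl encodes a receptor tyrosine kinase of the TAM family. Its probe set 1423586_at read 5327, 6693 and 6931 in cultured RhoA-KO, against 9305, 10219 and 11845 in cultured Wildtype. The groups were well apart, with means of 6317 ± 866 in RhoA-KO and 10456 ± 1287 in Wildtype (SD, n = 3 each) and a log2 difference of -0.73 (SE 0.13, limma adjusted p = 0.111). It passed in 1 fit over all 10 arrays (adjusted p = 0.0305). In fresh cells Axl read 585 and 537 in RhoA-KO, against 744 and 683 in Wildtype, a smaller difference without overlap (log2 -0.35, SE 0.11, limma adjusted p = 0.339). The culture effect minus the fresh effect was -0.38 (95% interval -0.77 to 0.01, limma adjusted p = 0.272). The other Axl probe set, 1438621_x_at, did not follow the first in culture, where it read 10.01, 10.09 and 11.45 in RhoA-KO, against 10.04, 10.21 and 9.96 in Wildtype, and the groups overlapped. Those readings are near the floor of the cultured arrays.

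Amotl2, an angiomotin-like scaffold that binds YAP and is also its target, was the 1 member whose genotype difference differed between culture and fresh cells past the threshold. In culture its probe set read 1141, 1279 and 1329 in RhoA-KO, against 1159, 986 and 1267 in Wildtype, and the groups overlapped. The log2 difference was 0.14 (SE 0.12, 95% interval -0.15 to 0.43, limma adjusted p = 0.610). In fresh cells it read 916 and 696 in RhoA-KO, against 1299 and 1475 in Wildtype, and the groups did not overlap. There the log2 difference was -0.79 (SE 0.16, 95% interval -1.20 to -0.38, limma adjusted p = 0.276). The culture effect minus the fresh effect was 0.93 (SE 0.20, 95% interval 0.49 to 1.38, limma adjusted p = 0.0416). Of the 19 member probe sets tested for such a difference 1 passed, against 1.95% of all 18773. Whether the unlike scales of the conditions contributed to it was not tested.

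The Amotl2 difference had the same sign under every alternative tried, with a size of 0.74 to 1.13 when single arrays were left out. The call was lost without a mean-variance trend (adjusted p = 0.0572) and with the replicate number as a block (0.0505). It was lost too in 1 fit over all 10 arrays (0.0910) and without any one of 7 of the 10 arrays. Those arrays were fresh Wildtype replicates 1 and 2, fresh RhoA-KO replicate 2, cultured Wildtype replicates 2 and 3 and cultured RhoA-KO replicates 2 and 3. Without fresh RhoA-KO replicate 2, the array with the hair follicle transcripts, the difference was 0.74, from a fit with 1 fresh RhoA-KO array.

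Ptpn14 is a tyrosine phosphatase that holds YAP in the cytoplasm and is itself induced by YAP and TEAD. All 3 of its probe sets were lower in RhoA-KO in both conditions, and none passed. The brightest, 1455359_at, read 427, 729 and 604 in cultured RhoA-KO, against 888, 724 and 952 in cultured Wildtype. The groups overlapped by a small margin, since RhoA-KO replicate 2 was level with Wildtype replicate 2 (log2 difference -0.57, SE 0.22, limma adjusted p = 0.303; -0.36 without cultured RhoA-KO replicate 1). In fresh cells it read 2061 and 1990.3 in RhoA-KO, against 2824 and 3426 in Wildtype, without overlap (log2 difference -0.62, SE 0.11, limma adjusted p = 0.274). The probe set 1436442_at gave log2 differences of -0.65 in culture and -0.68 in fresh cells (limma adjusted p = 0.275 and 0.274). The probe set 1421499_a_at gave smaller ones, -0.39 in culture and -0.22 in fresh cells (limma adjusted p = 0.369 and 0.490).

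Wwc2, a WW and C2 domain protein of the family that activates the Lats kinases, supplied the only member call within a condition. The probe set 1417195_at read 319.5, 343 and 311 in cultured RhoA-KO, against 554, 551 and 539 in cultured Wildtype. The arrays of a genotype were almost level and the genotypes were far apart. Wwc2 fell on this probe set to 325 ± 16.6 in RhoA-KO, against 548 ± 7.99 in Wildtype (SD, n = 3 each), a log2 change of -0.76 (SE 0.08, unadjusted p = 0.000122, limma adjusted p = 0.0464). The log2 change stayed between -0.80 and -0.73 when each cultured array was left out, but the call was lost in each of these 6 fits (adjusted p 0.0710 to 0.226). It was also lost without the filter on low values (0.0886), with 16 added to the intensities (0.0618), without the mean-variance trend (0.0519) and with the replicate number as a block (0.0955).

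In fresh cells 1417195_at read 342 and 286 in RhoA-KO, against 425 and 508 in Wildtype, again without overlap (log2 difference -0.57, SE 0.16, limma adjusted p = 0.312). The brightest Wwc2 probe set, 1417196_s_at, read 1446, 1531 and 1344 in cultured RhoA-KO, against 1813, 1789 and 1953 in cultured Wildtype (log2 difference -0.36, SE 0.08, limma adjusted p = 0.136). In fresh cells it read 432 and 416 in RhoA-KO, against 564 and 872 in Wildtype (log2 difference -0.72, SE 0.22, limma adjusted p = 0.320; -0.41 without fresh Wildtype replicate 2). Both conditions thus had every RhoA-KO array below every Wildtype array on this probe set too. The probe sets 1448611_at and 1417197_at gave log2 differences of -0.35 and -0.43 in culture and of -0.42 and -0.40 in fresh cells. The dimmest, 1417198_at, gave -0.10 in culture (limma adjusted p = 0.831) and was too dim to test in fresh cells.

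Wwc1, known as KIBRA, is the founding relative of Wwc2 and likewise acts upstream of the Lats kinases. Its probe set 1420008_s_at read 1580.0, 1615 and 1677 in cultured RhoA-KO, against 2186, 1962 and 2669 in cultured Wildtype. The groups did not overlap, with means of 1624 ± 48.9 in RhoA-KO and 2272 ± 361 in Wildtype (SD, n = 3 each; log2 difference -0.47, SE 0.12, limma adjusted p = 0.175). The probe set 1427261_at gave a like log2 difference of -0.44 in culture (limma adjusted p = 0.187). In fresh cells both were lower in RhoA-KO by less, -0.24 and -0.31 on the log2 scale (limma adjusted p = 0.390 and 0.488). The probe set 1420009_at read 26.7, 19.8 and 20.4 in cultured RhoA-KO, against 19.4, 20.2 and 19.6 in cultured Wildtype, overlapping and near the floor, and 1420007_at was too dim to test in either condition.

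Tead1, the DNA-binding partner through which YAP reaches its targets, was lower in RhoA-KO on both probe sets. The brighter, 1429556_at, read 1954, 1676 and 1535 in cultured RhoA-KO, against 2210.0, 2286 and 3029.9 in cultured Wildtype. The groups did not overlap (1722 ± 213 in RhoA-KO and 2509 ± 453 in Wildtype, SD, n = 3 each; log2 difference -0.54, SE 0.15, limma adjusted p = 0.205). In fresh cells it read 872 and 812 in RhoA-KO, against 1183 and 1385 in Wildtype (log2 difference -0.61, SE 0.12, limma adjusted p = 0.274). The culture effect minus the fresh effect was 0.07 with a 95% interval of -0.36 to 0.50. The dimmer probe set, 1423434_at, read 83.8, 67.4 and 86.3 in cultured RhoA-KO, against 83.8, 97.3 and 148 in cultured Wildtype, with overlap.

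Set against each other, the culture and fresh effects of the members other than Amotl2 could not be told apart at this number of arrays. The 18 other probe sets tested in both conditions had differences of the culture effect minus the fresh effect from -0.58, for Igfbp3 1458268_s_at, to 0.60, for Ccn2. Their 95% intervals were often wide, and none of their adjusted p-values passed, the smallest being that of Axl. The median log2 deviation of the tested members from the mean of their condition was -0.24, -0.17 and -0.22 on the cultured RhoA-KO arrays, against 0.33, 0.09 and 0.28 on the cultured Wildtype arrays. In fresh cells it was -0.20 and -0.33 on the RhoA-KO arrays, against 0.23 and 0.38 on the Wildtype arrays. Every RhoA-KO array thus lay below every Wildtype array of its condition, with cultured Wildtype replicate 2 the nearest to the RhoA-KO arrays.

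**Figure D3:**
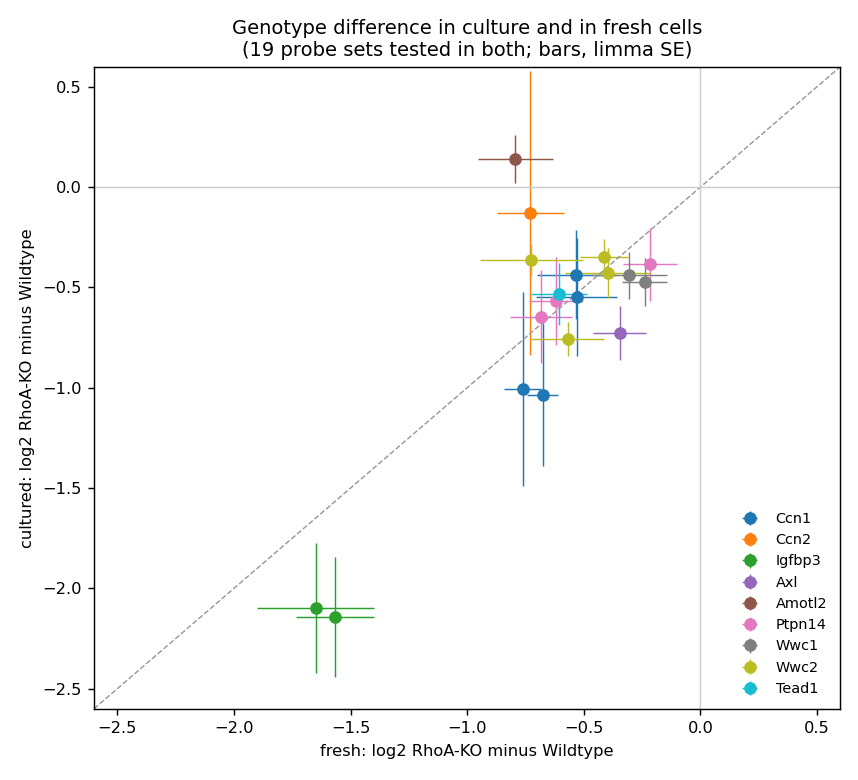
Log2 difference, RhoA-KO minus Wildtype, in fresh cells (horizontal) against the same in culture (vertical) for the 19 probe sets tested in both conditions, coloured by gene, with limma standard errors as bars. Amotl2 lies above 0 in culture and at -0.79 in fresh cells, the only point whose difference passed the test, while Igfbp3 is low on both axes.

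Because the conditions were on different scales, the members' places within an array were compared by rank only. Ccn1 1416039_x_at lay at the 89.3rd to 90.3rd percentile of the array in cultured RhoA-KO and at the 91.9th to 96.2nd in cultured Wildtype, and at the 98.3rd to 98.4th in fresh RhoA-KO and the 99.1st in fresh Wildtype. Every cultured array was thus below every fresh array of either genotype. The Ccn1 probe sets 1442340_x_at and 1457823_at were farther apart, between the 61.3rd and 70.1st percentile in culture and between the 96.2nd and 98.3rd in fresh cells. Ccn2 lay at the 74.1st to 75.3rd in cultured RhoA-KO and the 69.5th to 85.2nd in cultured Wildtype, against the 93.8th to 95.6th in fresh RhoA-KO and the 97.1st to 97.3rd in fresh Wildtype. Ptpn14 1455359_at, too, ranked lower in culture, at the 77.5th to 84.1st percentile, than in fresh cells, at the 94.9th to 97.4th. Axl 1423586_at had the opposite order, with the 95.1st to 96.0th percentile in cultured RhoA-KO and the 97.0th to 97.7th in cultured Wildtype, against the 82.3rd to 83.1st in fresh RhoA-KO and the 85.3rd to 86.0th in fresh Wildtype. Tead1 1429556_at ranked alike, from the 88.0th to the 92.4th percentile in culture and from the 87.4th to the 92.3rd in fresh cells. These ranks are descriptions and were not tested. A rank does not remove a difference in processing between the conditions, and the Ccn1 probe sets shifted by unlike amounts.

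The wider pathway had medians nearer to 0 than the members did. Of 29 Hippo pathway genes and YAP cofactors on the array, 25 were tested in culture, of which 15 read lower and 10 higher in RhoA-KO, with a median log2 difference of -0.03, and 3 lower and 4 higher had an unadjusted p under 0.05. In fresh cells 24 were tested, with 18 lower and 6 higher, a median of -0.11, and 8 lower and 0 higher at an unadjusted p under 0.05. None passed the limma adjusted threshold in either condition. Yap1 itself, named after its values were seen, read 2411 ± 173 in cultured RhoA-KO against 2621 ± 52.9 in cultured Wildtype (log2 difference -0.12, limma adjusted p = 0.464). In fresh cells Yap1 read 3002 ± 121 in RhoA-KO against 3531 ± 12.7 in Wildtype (log2 difference -0.23, limma adjusted p = 0.333).

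The Hippo genes with the smallest p in culture were higher in RhoA-KO, and none of them passed. They were Fat1, a giant protocadherin (log2 difference 0.43, limma adjusted p = 0.131), and the kinases Taok3 (0.88, adjusted p = 0.131) and Map4k4 (0.43, adjusted p = 0.132). In fresh cells the log2 differences of these genes were 0.11 for Fat1, -0.10 for Taok3 and 0.10 for Map4k4, with overlapping genotypes. The Hippo genes with the smallest p in fresh cells were other ones, all lower in RhoA-KO. Vgll3, a cofactor that binds TEAD proteins, read 570.2 ± 143 in fresh RhoA-KO against 1212 ± 228 in fresh Wildtype (SD, n = 2 each; log2 difference -1.10, limma adjusted p = 0.276), and in culture its log2 difference was -0.56 (limma adjusted p = 0.134). Wwtr1, the gene of TAZ, had a log2 difference of -0.61 in fresh cells (limma adjusted p = 0.289) and of -0.25 in culture (limma adjusted p = 0.399). Rassf1, a scaffold of the Hippo kinases, had -0.37 in fresh cells and 0.60 in culture, with the difference between the conditions past the threshold (0.97, limma adjusted p = 0.0181).

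Of 25 other YAP and TEAD targets on the array, 21 were tested in each condition. In culture 14 were lower and 7 higher in RhoA-KO, with a median log2 difference of -0.17, and 8 lower and 0 higher at an unadjusted p under 0.05. In fresh cells 13 were lower and 8 higher, with a median of -0.09, and 8 lower and 4 higher at an unadjusted p under 0.05. None passed after limma's adjustment in either condition. Edn1, the gene of endothelin 1, a secreted peptide, had the largest difference of those named: 32.1, 38.0 and 70.7 in cultured RhoA-KO, against 201, 351 and 475 in cultured Wildtype. The groups were far apart, with a log2 difference of -2.87 (SE 0.42, limma adjusted p = 0.0833). In fresh cells Edn1 had a log2 difference of -0.66 (limma adjusted p = 0.287), and the difference between the conditions passed (-2.21, limma adjusted p = 0.0342).

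Next in culture came Arhgap29, a GTPase-activating protein for RhoA (log2 difference -0.77, limma adjusted p = 0.0979), and Gadd45b, a stress response gene (-0.86, adjusted p = 0.106). In fresh cells Birc5, the gene of the mitotic protein survivin, read 782 ± 80.6 in RhoA-KO against 398 ± 85.6 in Wildtype (SD, n = 2 each; log2 difference 0.99, limma adjusted p = 0.274), and in culture its log2 difference was -0.19 (limma adjusted p = 0.318). The difference between the conditions passed for Birc5 as well (-1.18, limma adjusted p = 0.0167). Nt5e, a cell surface nucleotidase, had a log2 difference of -0.76 in fresh cells (limma adjusted p = 0.289). Of 43 genes of both lists tested for a difference between conditions, Rassf1, Edn1 and Birc5 were the 3 that passed. Of all 18773 probe sets so tested, 1.95% passed. The calls of these 3 genes were not refitted under the alternatives given below.

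**Figure D4:**
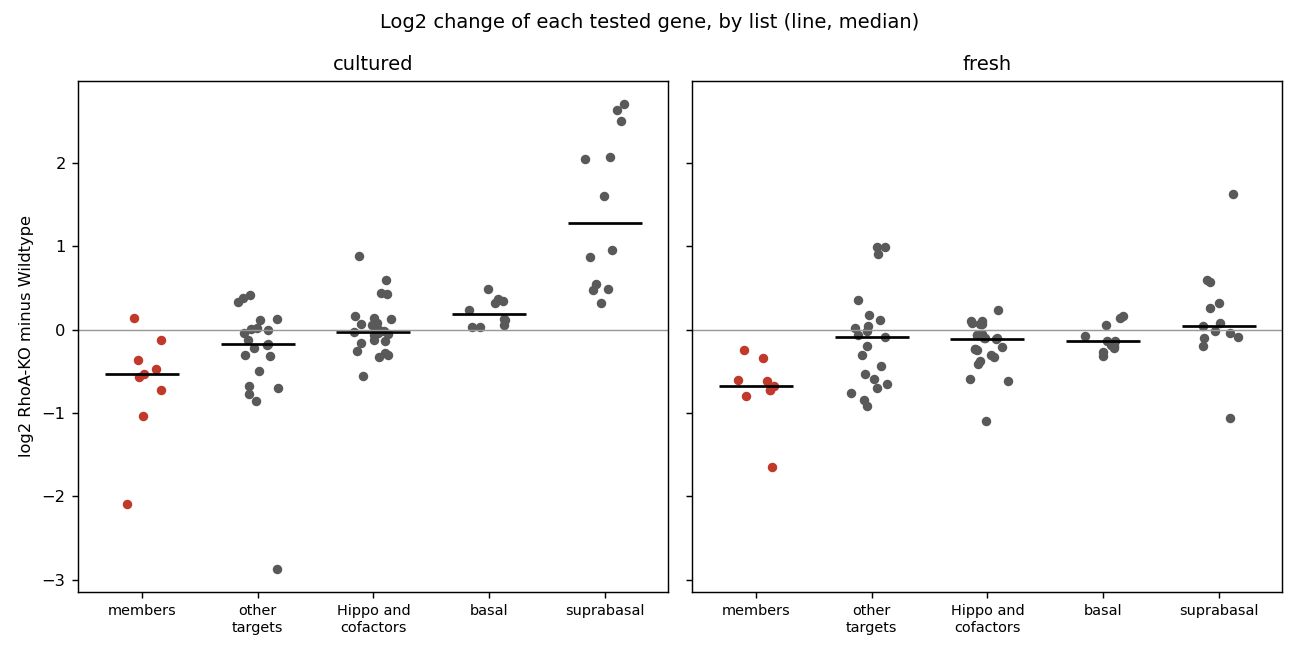
Log2 difference, RhoA-KO minus Wildtype, of each tested gene in cultured and in fresh cells for the members, the other targets, the Hippo genes and cofactors, and the basal and suprabasal keratinocyte markers, with a line at each median. The members lie mostly below 0 in both conditions, while the suprabasal markers lie above 0 in culture, with a median of 1.28.

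Markers of keratinocyte layers and of other cells moved with the genotype as well, and their part in the members' readings was not tested. In culture 12 of 12 tested suprabasal markers were higher in RhoA-KO, with a median log2 difference of 1.28 and a summed intensity of 60512 to 77093 in RhoA-KO against 40446 to 49108 in Wildtype. All 10 tested basal markers were higher too, with a median of 0.18 and a sum of 274671 to 285797 in RhoA-KO against 235858 to 273661 in Wildtype. In fresh cells 8 of 11 basal markers were lower, with a median of -0.14 and a sum of 102149 to 102606 in RhoA-KO against 105203 to 107843 in Wildtype. Of 13 suprabasal markers 6 were lower and 7 higher there, with a median of 0.04.

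Langerhans cell and myeloid markers were lower in fresh RhoA-KO cells, 8 of 8, with sums of 15665 and 7419 in RhoA-KO against 23754 and 18869 in Wildtype. Fibroblast markers were higher in fresh RhoA-KO, 5 of 5, with sums of 1258 and 2000.4 in RhoA-KO against 937 and 782 in Wildtype. Hair follicle markers had higher means in fresh RhoA-KO, 11 of 11, through RhoA-KO replicate 2. Their sum on RhoA-KO replicate 1, 604, was below both Wildtype sums, 1621 and 814. Melanocyte markers were 4 of 5 higher, with sums of 1484 and 4891 in RhoA-KO against 1293 and 1185 in Wildtype. Endothelial and pericyte markers summed to 786 and 787 in RhoA-KO against 831 and 745 in Wildtype. In culture the myeloid markers summed to 42.9 to 43.7, the fibroblast markers to 58.4 to 71.1 and the endothelial and pericyte markers to 46.7 to 48.1 over both genotypes. Most of these genes were below the array median on every cultured array, and Csf1r, Pdgfra, Col5a1 and Myh11 were above it, with overlapping genotypes. Hair follicle markers summed to 404 to 510.1 in cultured RhoA-KO against 295 to 391 in cultured Wildtype, and melanocyte markers to 566 to 1458 against 399 to 618.

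Among all probe sets tested in both conditions, the genes whose values moved most like those of a member were listed for Ccn1 and Igfbp3, over the 10 arrays and on log2 deviations from the mean of the condition. For Ccn1 they were Rgmb (Pearson r = 0.994), Sh3gl1 (0.980) and Ptger4 (0.972). For Igfbp3 they were Slc1a3 (0.977), Arhgap29 (0.972) and AA986860 (0.971). The arrays share a genotype difference and, for Ccn1, the high cultured Wildtype replicate 1, and the values are given as a description.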

How the data were processed

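RNA of 10 keratinocyte preparations was hybridised to Affymetrix Mouse Genome 430 2.0 arrays, per the labels' protocols. The authors deposited a linear intensity for each probe set, made with MAS5 per the submitters' processing notes. Its settings are not known here. Symbols came from the platform annotation, updated by Entrez identifier: 34945 of 45037 probe sets had 1 symbol, 932 several and 9160 none, and only the first kind was named.

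Log2 values were taken without an offset. Probe sets above their array's median on at least 2 arrays of a condition were tested with limma 3.58.1 in R 4.3.3 (lmFit, eBayes with a mean-variance trend, 2-sided), in each condition separately because of their scales, with Benjamini-Hochberg adjustment over all tested probe sets at 0.05. All the adjusted p-values given are limma's. The culture effect minus the fresh effect was tested from both fits, with their moderated standard errors combined. The procedure was tested on simulated data. The number of arrays, 2 or 3 a group, limits the precision.

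The 10 members, the pathway lists and the marker lists (basal, suprabasal, hair follicle, melanocyte, Langerhans and myeloid, fibroblast, endothelial and pericyte) were chosen with earlier results of these data known. A list's gene was represented by its brightest probe set over all 10 arrays. Every member and Rhoa are named, and from each pathway list the 3 genes with the smallest p in a condition where none passed, and the 3 genes most like Ccn1 and Igfbp3. Genes outside this rule are marked or are named for a difference between conditions past the threshold. No pair of arrays held identical values. Alternatives were other normalizations, filters, offsets, variance models, array weights, the replicate number as a block, 1 fit over all arrays, a stricter threshold and leaving out each array.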

Additional observations from a re-analysis of the deposited data

Results flagged for a closer look

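The genotype difference differed between culture and fresh cells for 1 of 19 member probe sets and 3 of 43 pathway list genes. This was by the test of the difference itself, which 1.95% of all 18773 probe sets passed. Whether the unlike scales of the conditions contributed was not tested. The calls of the 3 pathway list genes were not refitted under the alternatives. For Amotl2 the log2 change in culture minus that in fresh cells was 0.93, with 0.14 in culture and -0.79 in fresh cells (t-test of the difference, adjusted p = 0.0416). For Rassf1 the same difference was 0.97 (t-test of the difference, adjusted p = 0.0181). Rassf1 read 1675 ± 262 in cultured RhoA-KO against 1099.6 ± 85.8 in cultured Wildtype, and 2283 ± 38.0 in fresh RhoA-KO against 2968 ± 302 in fresh Wildtype. For Edn1 the same difference was -2.21 (t-test of the difference, adjusted p = 0.0342). Edn1 read 46.9 ± 20.8 in cultured RhoA-KO against 342 ± 137 in cultured Wildtype, and 202 ± 25.4 in fresh RhoA-KO against 317 ± 14.2 in fresh Wildtype. For Birc5 the same difference was -1.18 (t-test of the difference, adjusted p = 0.0167). Birc5 read 8882 ± 821 in cultured RhoA-KO against 10099 ± 221 in cultured Wildtype, and 782 ± 80.6 in fresh RhoA-KO against 398 ± 85.6 in fresh Wildtype.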

How the results depend on the processing

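No member's log2 difference in fresh cells changed its sign in any of 247 refits of single probe sets, and in culture 5 of 345 did. All 19 probe sets tested in fresh cells had genotypes without overlap, so leaving out or weighting arrays could not change a sign there. Other filters and variance models do not alter the log2 difference. Only the other normalizations could have changed a sign in fresh cells, so most of those refits are no check of it. Ccn2 in culture was 0.19 with array weights and -0.70 to 0.70 when single arrays were left out. Wwc2 1417198_at was 0.019 with array weights and -0.26 to 0.038 when single arrays were left out, and Axl 1438621_x_at -0.0028 to 0.094. The cause was not tested.

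Calls moved more than signs. Member calls by limma in culture, 1 of 23, became 2 with centring on the 75th percentile, 3 with array weights and 4 in 1 fit over all arrays, and 0 without the filter, with an offset of 16, without the trend, at 0.01, with the replicate block and without any 1 array (0 to 0). Over all probe sets the 62 culture calls became 128, 299 and 395 under the first 3 settings and 2 without the filter, 7 without the trend, 0 at 0.01, 17 with the block and 0 to 95 without single arrays. In fresh cells 0 calls became 393 in 1 fit over all arrays, none of them a member, and 0 to 945 without single arrays: 945 without RhoA-KO replicate 1, 6 of them members (0 to 6), and 11 without RhoA-KO replicate 2. The lone array of a group was then assumed to vary like the other group. For the difference between conditions the 1 member call became 0 without the trend, with the block, in 1 fit and at 0.01, and 0 to 2 without single arrays, and the 367 calls in all became 700 with array weights, 555 with the block, 27 at 0.01 and 28 to 1613 without single arrays. Counts of member probe sets lower in RhoA-KO without overlap, an alternative added after the data were seen, were 15 to 17 in culture and 24 to 25 in fresh cells without single arrays. Leaving out an array can only keep or raise such a count, so these ranges are no check of it. The share over all probe sets was not computed for them.

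Same-numbered arrays correlated in their deviations by 0.322, 0.0809 and 0.249 in culture, against -0.3 to 0.172 for arrays of unlike number. In fresh cells the value was -0.0548, but with 2 arrays a group its size is the same for every pair, so it cannot show a pairing. The labels name no pairing and the main fits used none. Whether same-numbered cultured arrays shared a preparation was not tested, and a call lost with the replicate block is a limit of that call. With 2 or 3 arrays a group and a floor at low intensity, dim probe sets were not measured.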
